A study of Mus musculus with 20 samples.

Results

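Serum amyloid A and related acute phase genes were followed across 20 arrays of mouse diaphragm RNA, through the probes whose gene name in the scanner files was Saa1, Saa2, Saa3, Saa4, Lcn2, Hp, Orm1, or Orm2. These are 8 of the 34797 gene symbols on the array, and each had 1 probe, all 8 of which entered the tests. The genes were chosen by their signals in these same fiber and control groups, with earlier results in view, so that their differences between fiber groups and controls are given below as a description without a p-value. Tests are given for their relation to Alb, for the comparison of both long fibers, and for other genes of the acute phase response. The lists of other genes, like the 8 genes, were chosen with earlier results of these data known. These tests are thus not independent of that choice.

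The arrays came from female C57Bl/6 mice that were 8 weeks old when a suspension was injected into the pleural cavity, the space between lung and chest wall that the diaphragm borders. Controls received 100 µL of the vehicle, saline with bovine serum albumin, which was also the carrier of all fibers. The groups SFA and LFA received short and long asbestos fibers (amosite, per the methods) at 25 µg per mouse, and the groups NTS and NTL received short and long carbon nanotubes at 5 µg per mouse. Part of each diaphragm was frozen 12 weeks after injection, and RNA from 4 mice per group was hybridized with 1 array for each mouse. A whole piece of diaphragm holds muscle, fat, mesothelium, and any adhering lesion or liver, and in such bulk RNA a larger number of cells of a type and more RNA per cell cannot be told apart.

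The acute phase response is the change in plasma protein production that follows injury or infection. Interleukin-6 and interleukin-1 drive it, mainly in hepatocytes, through STAT3, C/EBP factors, and NF-kB. Serum amyloid A proteins travel on high-density lipoprotein. Saa1 and Saa2 are the inducible forms of mouse liver, Saa4 is the constitutive form, and Saa3 is made outside the liver, among others by macrophages and adipocytes. Lcn2 encodes lipocalin-2, which binds bacterial siderophores, Hp encodes haptoglobin, which captures free hemoglobin and is made in liver and fat, and Orm1 and Orm2 encode orosomucoids (alpha-1-acid glycoproteins), which carry lipophilic ligands. Alb, the gene of serum albumin, is a liver gene that is itself lowered in the acute phase, and it served here as the gauge of liver RNA on each array.

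All signals are log2 intensities relative to the 75th percentile of the same array, so that 0 is a fairly bright probe, and they are compared between arrays and never between probes. A probe was called when limma's fit over all 36917 tested probes gave a difference of at least 1 on the log2 scale and an adjusted p under 0.05. The scale of the arrays varied, with 75th percentiles of intensity between 292 and 991 and with 53.0% to 68.1% of spots well above background. The arrays lay on 3 slides that each held several groups but not all. Slide 1 held no SFA or NTL array and slide 3 no NTS array. Alb itself ran from -1.93 to 10.1 over the 20 arrays, and the mean log2 signal of 22 liver markers from -3.01 to 7.74, so that both differed widely between mice of each group. Both were most intense on replicates 1 and 3 of LFA and replicates 3 and 4 of NTS, and several differences are also given without these 4 arrays. That leaves only replicates 2 and 4 of LFA and replicates 1 and 2 of NTS. SFA replicate 2, with Alb at 8.67 next to 8.85 on LFA replicate 1, was kept.

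The serum amyloid genes lie close together on chromosome 7. In the mm9 coordinates of the files, the Saa3 probe is at chr7:53970389-53970448, the Saa4 probe at chr7:53983662-53983721, and the Saa1 probe at chr7:53996070-53996129, all on the minus strand, and the Saa2 probe at chr7:54009622-54009681 on the plus strand. The 60-base probes of Saa1 and Saa3, on which the main results rest, are shown here with the longest run that they share in capitals, which is 6 bases.
Saa1: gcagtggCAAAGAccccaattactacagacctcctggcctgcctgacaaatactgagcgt
Saa3: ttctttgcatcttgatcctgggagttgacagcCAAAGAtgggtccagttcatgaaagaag
The orosomucoid genes are likewise neighbors, and the probe of Orm1, whose ends map to chr4:63006483-63007090 and so span a gap, and that of Orm2, at chr4:63024979-63025038, share at most the 7 bases in capitals.
Orm1: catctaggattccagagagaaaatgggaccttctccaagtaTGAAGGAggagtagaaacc
Orm2: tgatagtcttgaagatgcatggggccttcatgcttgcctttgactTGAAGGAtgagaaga
Over the 28 pairs of the 8 probes the longest shared run was between 5 and 8 bases, and 0 probes of other genes on the array shared a stretch of 20 bases with any of them. Whether a probe also binds the transcript of a relative was not tested. A comparison of probe with probe cannot decide it, since the probes may lie at different places of their transcripts. The Lcn2 probe is at chr2:32240199-32240258 and the Hp probe at chr8:112099045-112099104.

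Saa3, the form made outside the liver, rose the most. The control arrays read 1.10, 0.61, 0.00, and -0.61, and the SFA arrays 0.16, 1.06, 0.50, and 1.69. The LFA arrays read 4.28, 6.01, 3.40, and 4.90, and the NTL arrays 5.37, 5.47, 5.53, and 6.13. The NTS arrays stood at 0.49, 0.12, 2.12, and -0.51. Every long-fiber array was thus above every array of the other 3 groups, with no overlap, whereas SFA and NTS overlapped with the controls. The mean difference from control was 4.37 ± 0.57 (SE, n = 4 per group) for LFA and 5.35 ± 0.57 for NTL on the log2 scale, that is 20.7-fold and 40.8-fold. The SFA and NTS differences were 0.57 ± 0.57 and 0.28 ± 0.57, about the size of their SE or below it.

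Saa1 followed with a different pattern on the short nanotubes. Controls read 0.25, 1.07, -0.37, and -0.49, and the SFA arrays 0.30, 1.70, 0.51, and 0.39. LFA gave 3.18, 4.33, 3.97, and 3.03, and NTL gave 3.68, 4.60, 3.57, and 4.35. The NTS arrays were split, with 0.24 and 0.15 on replicates 1 and 2 and with 3.35 and 4.32 on replicates 3 and 4, the pair rich in Alb. All LFA and NTL arrays were above all control and SFA arrays, but 2 of the 4 NTS arrays lay within their range. The difference from control was 3.51 ± 0.73 for LFA (11.4-fold) and 3.94 ± 0.73 for NTL (15.3-fold), against 0.61 ± 0.73 for SFA and 1.90 ± 0.73 for NTS.

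**Figure D1:**
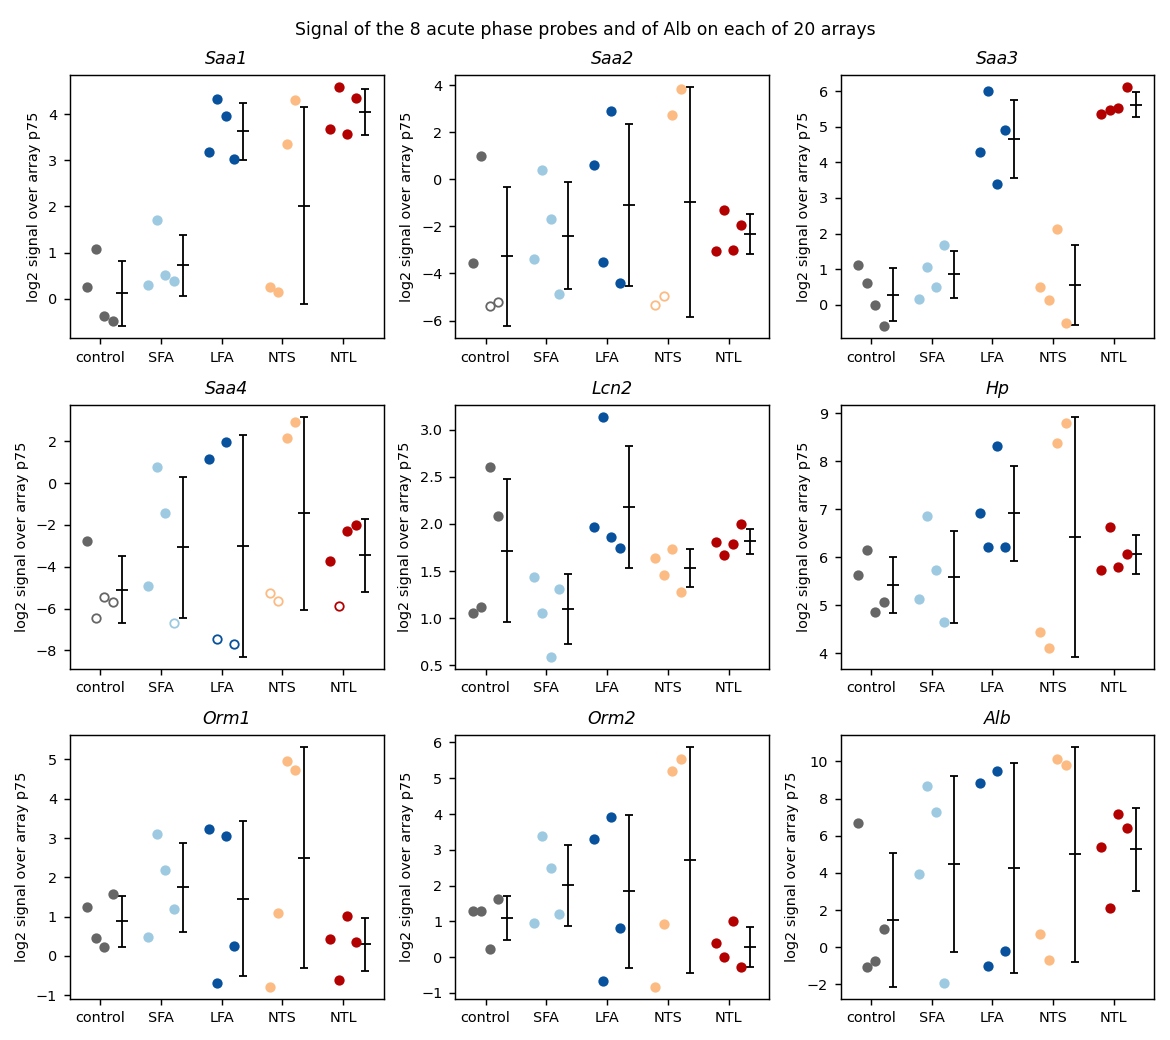
Signal of each acute phase probe and of Alb on every array. The vertical axis is the log2 intensity relative to the 75th percentile of the array, each point is 1 mouse in the order of replicates 1 to 4, open points were not well above background, and bars are the mean ± SD of 4 arrays. For Saa3 all LFA and NTL points lie above all others, and for Saa4, Orm1, and Orm2 the high NTS and LFA points are the arrays that are also high for Alb.

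Of the 8 genes, Saa1 and Saa3 were called higher with LFA and with NTL, and the other 6 were not called in either direction. Over all tested probes, 2.21% were called higher with LFA and 3.64% with NTL (3.96% and 6.8% in either direction), and the choice of genes used these same contrasts, so that nothing is read from the count. The median difference of the 8 probes was 1.79 with LFA and 0.79 with NTL, beside medians of -0.28 and -0.25 over all probes. With SFA and NTS, 0 of the 8 were called by limma, as were 0% of all probes, and 0 and 1 of the 8 had an unadjusted p under 0.05. The methods' test, which allows unequal variances, gives 1 p-value per probe over all 5 groups, and Saa1 passed it and also met the fold limit in NTS, which is not a test of NTS against control. Without replicate 2 of LFA the Saa1 difference from control in LFA was no longer called, and the Saa3 difference was.

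For Saa3 and Saa1 the slides did not turn the direction of LFA or NTL against controls. Within the slides that held both groups, the Saa3 difference between LFA and controls was 4.76, 3.42, and 6.01, and that of Saa1 was 3.98, 2.52, and 4.70, with 1 or 2 arrays per group on each slide. For NTL, present with controls on 2 slides, the differences were 4.51 and 5.71 for Saa3 and 3.02 and 4.55 for Saa1. The Saa1 difference between NTS and controls was 4.32 on slide 1 and -0.46 on slide 2. Replicates 3 and 4 of NTS, the pair rich in Alb, lay on slide 1, and replicates 1 and 2 on slide 2. Slide and Alb thus cannot be told apart in NTS.

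Fiber length was compared within each material. Saa3 was 3.80 ± 0.57 higher with LFA than with SFA and 5.07 ± 0.57 higher with NTL than with NTS, the only one of the 8 past the threshold in either comparison, where 1.03% and 4.92% of all probes were called higher. The choice of genes used these groups too, so that nothing is read from that count. NTL and NTS shared only slide 2, with 1 NTL and 2 NTS arrays, where the difference was 5.06 for Saa3 and 3.48 for Saa1. The other NTL arrays lay on slide 3 and the other NTS arrays on slide 1, so that group and slide were largely confounded. For Saa1 the differences over all slides were 2.90 ± 0.73 for LFA against SFA and 2.03 ± 0.73 for NTL against NTS. The first had groups that did not overlap (as in 3.14% of all probes, against 7.66% for NTL over NTS) but was called only with other settings, such as quantile normalization or Alb as a covariate, and in the second NTS replicates 3 and 4 lay within or near the NTL range. Without the 4 arrays richest in Alb, which leaves only replicates 1 and 2 of NTS, the Saa1 difference between NTL and NTS was 3.85 and was called. The arrays left out held the high Saa1 values of NTS, so that the larger difference followed from leaving them out.

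Both long fibers were then set against each other, although their doses differed, at 25 µg of LFA and 5 µg of NTL per mouse. Saa3 was 0.98 higher with NTL (95% confidence interval -0.21 to 2.17), and Saa1 was 0.43 higher (-1.11 to 1.96). Neither passed the threshold, nor did the other 6 genes, and 0 of the 36917 probes passed in limma's test. None of the 8 had an unadjusted p under 0.05. The intervals leave room for a Saa3 level above 4-fold higher with NTL, or slightly lower. The difference of the length effects between nanotubes and asbestos was 1.27 ± 0.80 for Saa3 and -0.87 ± 1.03 for Saa1, and passed the threshold for 0 of 8 genes in limma, with 0 at an unadjusted p under 0.05.

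Saa2, the second inducible liver form, was not called in the long-fiber groups, and its differences were not tested against those of Saa1. Its control arrays read -3.56, 1.01, -5.36, and -5.20, of which 2 were well above background, and the NTL arrays -3.06, -1.32, -2.98, and -1.93. LFA gave 0.60, -3.52, 2.90, and -4.40, SFA gave -3.40, 0.41, -1.70, and -4.86, and NTS gave -5.34 and -4.97, both not well above background, then 2.72 and 3.82. The high arrays of LFA and NTS were again those rich in Alb, and all groups overlapped. An exception was replicate 2 of the controls, with Saa2 at 1.01 while Alb was -1.08. That array also had the highest Saa1 and Hp of the controls and the lowest 75th percentile of all arrays (292). The Saa2 differences were 2.17 ± 2.05 for LFA and 0.95 ± 2.05 for NTL, close to or below their SE. Without the 4 arrays richest in Alb the LFA difference was -0.68 ± 1.54. Without control replicate 2 the differences were 3.60 for LFA and 2.38 for NTL, and neither was called.

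With the long fibers Saa1 and Saa3 were called higher and Saa2, whose promoter is much like that of Saa1, was not. The SE of the Saa2 differences was large, and Saa2 was not tested against Saa1. On NTS replicates 3 and 4, Saa1 (3.35 and 4.32) and Saa2 (2.72 and 3.82) were both high. Promoters of these genes are shown as sequence only, and whether their letters bear on the signals was not tested. The 200 bases before the start site are given from RefSeq on GRCm38.p6, with capitals for matches to NF-kB (GGGNNNNNCC), C/EBP (TTNNGNAA), or STAT (TTCNNNGAA) letters on either strand. They are chr7:46715677-46715876 on the minus strand for Saa3, chr7:46742981-46743180 on the minus strand for Saa1, and chr7:46751633-46751832 on the plus strand for Saa2.
Saa3: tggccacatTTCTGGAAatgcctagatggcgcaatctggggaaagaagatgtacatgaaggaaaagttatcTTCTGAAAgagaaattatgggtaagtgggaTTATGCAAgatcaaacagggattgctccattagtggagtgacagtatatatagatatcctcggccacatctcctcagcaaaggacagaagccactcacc
Saa1: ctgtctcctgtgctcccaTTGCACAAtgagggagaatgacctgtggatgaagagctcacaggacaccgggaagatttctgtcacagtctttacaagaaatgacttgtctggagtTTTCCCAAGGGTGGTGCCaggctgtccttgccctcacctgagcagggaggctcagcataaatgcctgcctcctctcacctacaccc
Saa2: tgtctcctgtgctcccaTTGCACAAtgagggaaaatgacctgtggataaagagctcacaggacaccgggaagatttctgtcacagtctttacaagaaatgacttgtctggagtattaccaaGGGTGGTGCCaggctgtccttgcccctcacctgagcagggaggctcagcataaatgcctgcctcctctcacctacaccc
Over the 250 bases searched, Saa1 and Saa2 shared a run of 65 bases and Saa1 and Saa3 a run of 8. Saa1 and Saa2 each held 1 match to the NF-kB letters, 78 and 79 bases before the start, and a C/EBP match 182 and 183 bases before it. Saa1 had another C/EBP match 86 bases before the start, directly next to its NF-kB match, where the Saa2 letters differ. Saa3 had 4 C/EBP matches, at 99, 129, 191, and 216 bases, and no match to the NF-kB letters, and none of the promoters of Saa1, Saa2, and Saa3 held the STAT letters. The letters are common, and of 27025 promoters of the same length 45.4% held the NF-kB letters, 36.9% the C/EBP letters, and 7.18% the STAT letters.

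Saa4, the constitutive form, tracked Alb. It was well above background on 1 control array, on 3 SFA, 2 LFA, 2 NTS, and 3 NTL arrays. Its control values were -2.79, -6.45, -5.45, and -5.68, and the highest of them was on replicate 1, the control with the most Alb. LFA read 1.15, -7.45, 1.98, and -7.70, and NTS read -5.24, -5.62, 2.18, and 2.92. The SFA values were -4.90, 0.77, -1.45, and -6.70, and the NTL values -3.72, -5.86, -2.27, and -1.99. The range was wide in every group and the groups overlapped, with differences from control of 2.09 ± 2.35 for LFA and 1.63 ± 2.35 for NTL. Without the 4 arrays richest in Alb the LFA difference was -2.49 ± 1.65.

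Orm1 and Orm2 moved in parallel. Orm1 read 1.23, 0.46, 0.23, and 1.58 in controls, 0.49, 3.10, 2.18, and 1.20 with SFA, and 3.23, -0.69, 3.04, and 0.26 with LFA. With NTS it read -0.79, 1.10, 4.96, and 4.74, and with NTL 0.42, -0.61, 1.002, and 0.35. The highest Orm1 values were again those of NTS replicates 3 and 4, and every group overlapped with the controls. Orm2 ran from 0.22 to 1.64 in controls, 0.96 to 3.38 with SFA, -0.66 to 3.92 with LFA, -0.83 to 5.55 with NTS, and -0.28 to 1.01 with NTL. The NTL difference from control was -0.58 ± 1.09 for Orm1 and -0.82 ± 1.18 for Orm2, and was not called. Without the 4 arrays richest in Alb the LFA difference of Orm1 went from 0.58 to -1.09 ± 0.70.

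Hp, haptoglobin, was bright on every array. Its controls read 5.63, 6.15, 4.85, and 5.07, the LFA arrays 6.92, 6.22, 8.32, and 6.22, and the NTL arrays 5.74, 6.64, 5.80, and 6.07. SFA gave 5.13, 6.86, 5.75, and 4.64, and NTS gave 4.44, 4.12, 8.39, and 8.79. The LFA arrays were all above the controls, if barely so, and the NTL arrays overlapped with them. The differences were 1.49 ± 0.86 for LFA and 0.63 ± 0.86 for NTL, and neither was called. Higher in LFA with no overlap were 3 of the 8 genes (Saa1, Saa3, and Hp), and in NTL 2, where 4.56% and 6.36% of all probes met that condition. Without the 4 arrays richest in Alb the LFA difference of Hp was 0.79.

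Lcn2, lipocalin-2, showed small group differences. Controls read 1.05, 1.12, 2.61, and 2.08, SFA 1.43, 1.05, 0.59, and 1.31, and LFA 1.97, 3.14, 1.86, and 1.74. The NTS values were 1.64, 1.46, 1.73, and 1.28, and the NTL values 1.81, 1.67, 1.78, and 1.99. Controls spanned all NTL and NTS arrays. The difference from control was 0.46 ± 0.35 with LFA and 0.10 ± 0.35 with NTL. LFA lay above SFA on every array, by 1.08 ± 0.35, which was not called. Lcn2 is also a product of neutrophils. Of 14 neutrophil markers, 2 (Cxcr2 and Stfa2l1) were called higher with LFA and 1 (Stfa2l1) with NTL, beside 2.74% and 4.37% of all genes. The mean log2 signal of those markers ran from -1.34 to 1.24 in controls, 0.06 to 1.50 in LFA, and -0.29 to 0.56 in NTL, and their part in the Lcn2 values was not tested.

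Each gene was next set against Alb on the same arrays, by adding the Alb signal to the fit as a covariate beside the group means. The slope is the difference of a probe, in log2 units, for each log2 unit of Alb within groups. Saa4 rose by 0.76 ± 0.05 per unit (adjusted p = 6.99e-09 in limma over all probes), Orm2 by 0.33 ± 0.06 (adjusted p = 0.000897), and Orm1 by 0.31 ± 0.05 (adjusted p = 0.000356). Slopes of Saa2, at 0.50 ± 0.11 (adjusted p = 0.0163 in limma), and of Hp, at 0.21 ± 0.05 (adjusted p = 0.0129 in limma), passed as well. Those of Saa1, Saa3, and Lcn2 did not, at 0.12 ± 0.05, -0.03 ± 0.05, and -0.04 ± 0.03, with adjusted p of 0.348, 0.781, and 0.572 in limma. Thus 5 of 8 passed, beside 3.19% of all probes, with the 8 genes chosen on these same arrays. A straight slope describes Hp, Orm1, and Orm2 only roughly, since their values were mixed on arrays with little Alb and climbed on those with the most. The slopes rest on few arrays. Without the 4 arrays richest in Alb only that of Saa4 passed, with slide as a block or without NTS replicate 2 those of Saa4, Orm1, and Orm2 did.

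**Figure D2:**
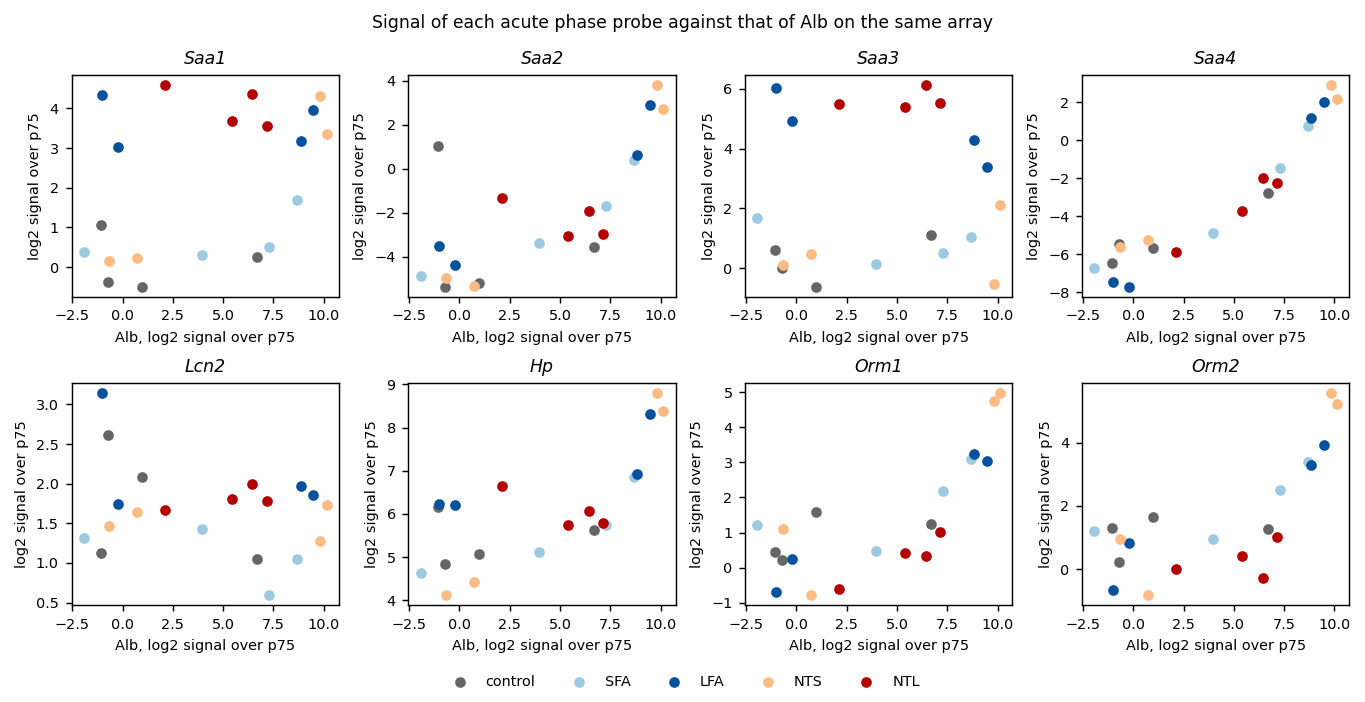
Each acute phase probe against Alb on the same array. Both axes are log2 intensities relative to the 75th percentile of the array, and each of the 20 points is 1 mouse, colored by group. Saa4 climbs with Alb across all groups (slope 0.76 within groups), whereas Saa3 separates the long fibers from the rest at low and at high Alb (slope -0.03).

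At equal Alb, Saa3 was 4.47 ± 0.58 higher with LFA and 5.48 ± 0.60 higher with NTL than in controls, hardly different from the values without the covariate. Saa1 was 3.17 ± 0.67 and 3.48 ± 0.68 higher. These 2 genes were called at equal Alb in both long-fiber groups, where 2.3% and 3.95% of all probes were called higher, and as the choice rested on these signals, nothing is read from the count. In LFA the Saa1 call at equal Alb was lost without replicate 1 of the controls, replicate 2 of LFA, or replicate 4 of LFA. Single arrays are listed here with their Alb values as a description, and what part liver RNA had in them was not tested. LFA replicates 2 and 4 had Alb at -1.001 and -0.22, within the lower control range, with Saa1 at 4.33 and 3.03 and Saa3 at 6.01 and 4.90. SFA replicates 2 and 3 had Alb at 8.67 and 7.29, with Saa1 at 1.70 and 0.51 and Saa3 at 1.06 and 0.50. NTS replicates 3 and 4, with Alb at 10.1 and 9.82, had Saa1 within or near the long-fiber range and Saa3 at 2.12 and -0.51.

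For Saa2, Saa4, and Hp the covariate took part or all of the LFA difference away. The LFA difference of Saa2 fell from 2.17 to 0.77 ± 1.48, that of Saa4 from 2.09 to -0.06 ± 0.67, and that of Hp from 1.49 to 0.89 ± 0.61. With NTL, Orm1 and Orm2 were at -1.76 ± 0.63 and -2.07 ± 0.72 at equal Alb and were not called. Against NTS, NTL was called lower at equal Alb for Saa4, Orm1, and Orm2, 3 of 8 genes beside 4.56% of all probes. Nothing is read from this count either, since the genes were chosen on these groups. The mean of 15 liver markers, those outside the acute phase lists and so without Alb, was then used in place of Alb. None of these 3 genes was then called, at -0.71 ± 0.46 for Saa4, -1.67 ± 0.55 for Orm1, and -1.85 ± 0.62 for Orm2, beside 3.78% of all probes called lower. At an equal mean of these markers Alb itself was 1.94 ± 0.47 higher with NTL than with NTS. Without either covariate the differences were -2.02, -2.21, and -2.43, and without the 4 arrays richest in Alb they turned to 1.97 ± 1.65 for Saa4, 0.14 ± 0.70 for Orm1, and 0.23 ± 0.70 for Orm2.

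**Figure D3:**
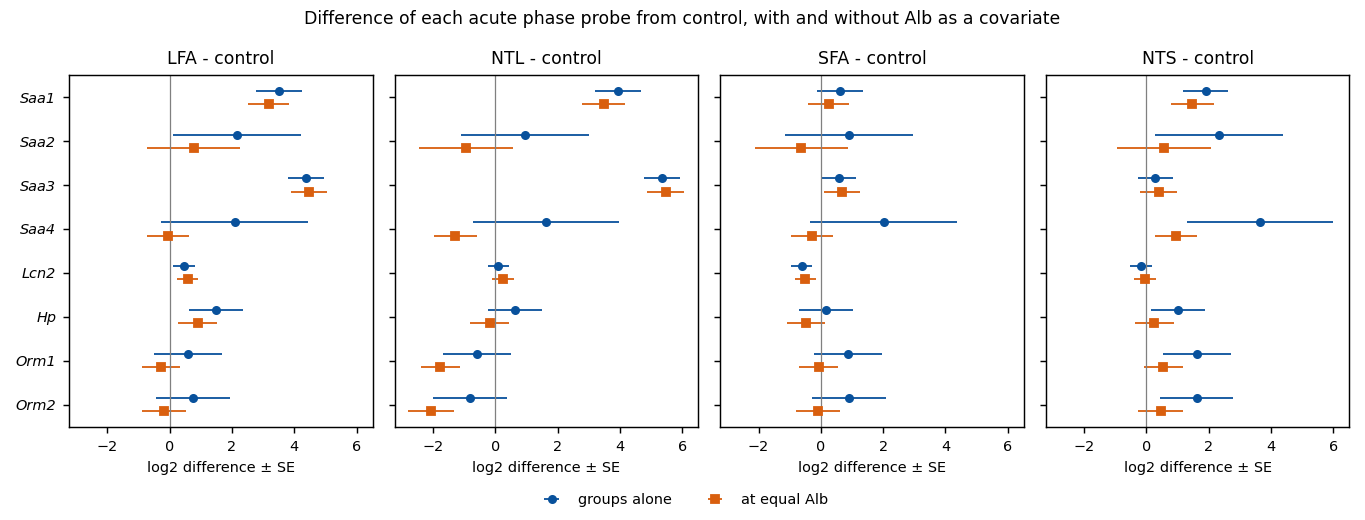
Difference of each acute phase probe from control in the 4 fiber groups, as the log2 difference ± SE from the fit over 20 arrays. Round points are the group differences alone and square points those at equal Alb. Saa1 and Saa3 stay near 3 to 5 with LFA and NTL in both, while Saa4 with LFA moves from 2.09 to -0.06.

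Over the 20 arrays the 8 genes fell into unlike patterns, which are given as correlations without a test, since the arrays share groups and liver RNA. Orm1 and Orm2 had r = 0.98 with each other, Saa2 and Hp 0.92, and Saa4 and Alb 0.95. Saa3 had r = 0.78 with Saa1 but 0.04 with Saa2 and -0.06 with Saa4. Among 25386 other genes the most alike with Saa3 were Calca (r = 0.97), Trem2 (0.96), and Fam162b (0.96). With Saa1 they were Qpctl (0.95), Arsg (0.94), and Oasl1 (0.94). Saa4 was closest to Acsm1, Acot12, and Gltpd2 (0.99 each), and Orm2 to Rbp4 (0.98), Tm7sf2 (0.97), and Orm3 (0.96). Orm1 was nearest to Serpina3c, Fah, and Rbp4 (each 0.96), Hp to Ugt1a6b (0.98), Cp (0.97), and Akr1c13 (0.96), and Saa2 to Akr1c19, Tstd1, and Qsox1 (each 0.96). Lcn2 had no close match, with Nucb1 at 0.82 and Gmip and Ptk2b at 0.79.

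Of 24 tested inducers and signal path genes, 4 were called higher with LFA and 5 with NTL, where by brightest probe 2.74% and 4.37% of all genes were called higher. Il6, the chief inducer of the liver response, was not well above background on any control array and was at least 8.06-fold higher with LFA (adjusted p = 0.000622) and at least 10.4-fold higher with NTL (adjusted p = 0.000131 in limma). These bounds set the long-fiber mean against the lowest signal that was still well above background on each control array. Il1b rose by 3.74 ± 0.72 and 3.38 ± 0.72 on the log2 scale, its receptor Il1r1 by 2.40 ± 0.42 and 2.62 ± 0.42, and Socs3, the feedback inhibitor of STAT3 signaling, by 1.54 ± 0.31 and 1.48 ± 0.31. Their adjusted p in limma ran from 0.00103 to 0.00995. Tnf was called with NTL alone, at 1.49 ± 0.44 (adjusted p = 0.0438 in limma), and was at 1.04 ± 0.44 with LFA. Stat3 was at 0.36 ± 0.25 with LFA and 0.14 ± 0.25 with NTL and was not called. Cebpa, Cebpb, Cebpd, Nfkb1, Nfkb2, and Rela were not called either. At equal Alb, Nfkb1 (1.19 ± 0.35) and Il11 (1.26 ± 0.31) were called higher with NTL. The medians of the list were 0.37 and 0.53, beside -0.24 for all genes in either comparison.

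**Figure D4:**
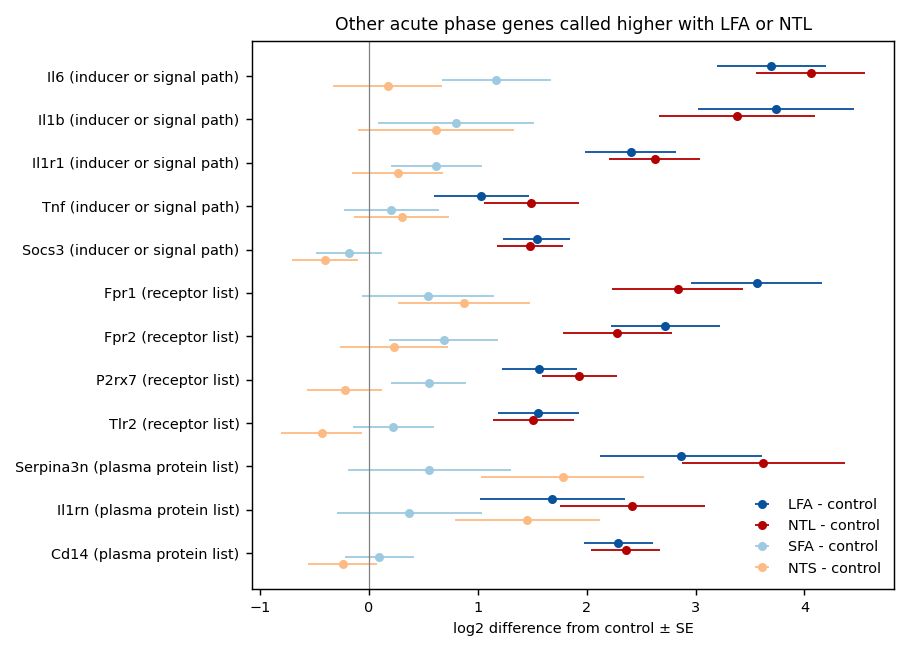
Acute phase genes outside the 8 that were called higher with LFA or NTL. The horizontal axis is the log2 difference from control ± SE over 4 arrays per group, for all 4 fiber groups. The LFA and NTL points lie between 1.04 and 4.06, and the gene lists are named in parentheses. For Il6 and Il1rn, whose control arrays were not above background, the fitted points are not bounds.

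Of 15 genes counted here for receptors and binding partners of these proteins, 4 were called higher with LFA and the same 4 with NTL. Over all genes, 2.74% and 4.37% were called higher. Fpr1 and Fpr2 encode formyl peptide receptors, of which Fpr2 binds serum amyloid A. Fpr1 was higher by 3.56 ± 0.60 with LFA and 2.83 ± 0.60 with NTL, and Fpr2 by 2.72 ± 0.50 and 2.28 ± 0.50. Tlr2, another receptor for serum amyloid A, was higher by 1.56 ± 0.37 and 1.51 ± 0.37, and P2rx7, an ATP-gated channel of macrophages, by 1.57 ± 0.34 and 1.93 ± 0.34. Adjusted p of the 4 genes ran from 0.00225 to 0.0267 in limma. Cd163, the scavenger receptor for haptoglobin complexes, was at -1.10 ± 0.79 and 0.03 ± 0.79, and Slc22a17, a receptor of lipocalin-2, at 0.30 ± 0.27 and 0.39 ± 0.27, and neither was called.

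Among 29 other positive acute phase proteins, 2 were called higher with LFA and 3 with NTL, beside 2.74% and 4.37% of all genes. Serpina3n, a serine protease inhibitor, rose by 2.87 ± 0.75 (adjusted p = 0.038) and 3.62 ± 0.75 (adjusted p = 0.00657 in limma), and Cd14, a macrophage co-receptor for endotoxin, by 2.29 ± 0.32 and 2.36 ± 0.32 (adjusted p = 0.000745 and 0.000253 in limma). At equal Alb the LFA difference of Serpina3n was 2.57 ± 0.71 and was no longer called. Il1rn, the interleukin-1 receptor antagonist, was called with NTL (adjusted p = 0.0324 in limma), at least 2.34-fold higher than the controls, where it was not well above background on any array. At equal Alb it was no longer called (adjusted p = 0.0534 in limma), and Serpina3k, a liver relative of Serpina3n, was called lower with NTL, at -2.13 ± 0.51 (adjusted p = 0.0176 in limma). Of the same 29 genes 18 had a slope on Alb past the threshold, beside 3.19% of all probes. All 8 negative acute phase proteins passed as well, but Alb is 1 of them and its slope on itself was fixed in advance. None of the 8 negative proteins was called with LFA or NTL by limma, and 0 had an unadjusted p under 0.05. With SFA and NTS, 0 genes of these 4 lists were called by limma, and between 0 and 2 of each list had an unadjusted p under 0.05.

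Several lists of cell type markers differed between the long-fiber groups and controls, as Saa1 and Saa3 did. The 14 macrophage markers include Cd14 and Cd163, which were also counted in the lists above. Of these 14 markers, 10 were called higher with LFA and 10 with NTL, beside 2.74% and 4.37% of all genes. Among them were Marco (3.91 ± 0.46 and 3.56 ± 0.46), Trem2 (3.53 ± 0.39 and 4.34 ± 0.39), Clec7a (3.09 ± 0.42 and 3.58 ± 0.42), and Msr1 (3.13 ± 0.49 and 3.01 ± 0.49), with adjusted p between 8.86e-06 and 0.00187 in limma. The mean log2 signal of the macrophage markers ran from 0.59 to 0.88 in controls, 2.20 to 3.03 in LFA, and 2.86 to 3.10 in NTL, and from 0.46 to 1.12 in SFA and NTS, so that, as for Saa3, the long-fiber arrays stood apart. That of 12 markers of skeletal muscle, the main tissue of the diaphragm, was high on all arrays and was between 7.79 and 8.05 in controls, 6.61 and 7.28 in LFA, and 6.44 and 6.74 in NTL. Of these, 3 were called lower with LFA and 5 with NTL, where by brightest probe 1.82% and 3.45% of all genes were called lower. For 10 adipocyte markers, of which 2 and 5 were called lower, the mean ran from 4.88 to 5.45 in controls and was between 3.83 and 5.03 over both long-fiber groups. Of 10 markers of fibroblasts and matrix, 2 were called higher with LFA and 6 with NTL, beside 2.74% and 4.37% of all genes. The median differences of these markers were 0.90 and 1.40. Their mean ran from 4.46 to 4.87 in controls, 4.93 to 6.09 in LFA, and 5.31 to 6.33 in NTL. What part these cells had in the Saa1 and Saa3 values was not tested. Of the 22 liver markers 0 were called with LFA or NTL by limma, and 0 had an unadjusted p under 0.05. Of 10 mesothelium markers 0 were called with LFA or NTL by limma, and 1 and 0 had an unadjusted p under 0.05. The mean of the mesothelium markers ran from 2.43 to 3.21 in controls, 2.09 to 3.52 in LFA, and 2.17 to 2.62 in NTL.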

How the data were processed

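RNA of 20 diaphragms was labeled with Cy3 by the authors and hybridized to mouse 60K arrays. They deposited the output of Agilent Feature Extraction 10.7.3.1, whose processed signal is a background-subtracted intensity, and a table of group means as log2 values that the authors had normalized in GeneSpring, used as an alternative, whose centring is not stated. Outlier spots (92 to 204 per array, 0 of them from the 8 genes) were left out, spots of a probe were averaged, and log2 intensities were set relative to the 75th percentile of each array. Probes well above background on at least 4 of 20 arrays were tested, 36917 of 55681. The number of arrays limits the precision.

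Group means of all 5 groups were fitted with limma 3.58.1 in R 4.3.3 (data.table package, version 1.17.8), without and with Alb as a covariate, with Benjamini-Hochberg adjustment over all tested probes. Scripts were tested on simulated data. Python 3.11.15 with numpy 2.4.6, pandas 2.3.3, and matplotlib 3.10.9 read the files and drew the figures. The 8 genes, the gene lists, and the alternatives were chosen with earlier results of these data known. Beside the 8 genes and Alb, up to 4 genes of each list that were called in both long-fiber groups are named, by the smaller of their differences, each gene by its brightest probe, along with single called genes where a count was 5 or fewer, and for each of the 8 genes the 3 most alike. A gene of the receptor list is not reported here and was left out of its counts. Cd163, Slc22a17, Stat3, Il11, and the C/EBP and NF-kB genes were named after their values were seen. Probe accessions of the 8 genes matched the same symbols in the GRCm38.p6 gene table, and 6 of their promoters were in the promoter table. The labels do not say that equal replicate numbers mark the same animal or litter, and samples with equal numbers did not deviate together (r from -0.68 to 0.69 over 40 pairs), so no pairing was used in the tests above. Alternatives were quantile normalization, normexp with offset 50, no filter and a filter on all arrays, the authors' table, slide or replicate number as a block, only the groups compared, each array left out, the mean of 15 liver markers as covariate, and the methods' test. Leaving out the 4 arrays richest in Alb was chosen after seeing the data.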

Additional observations from a re-analysis of the deposited data

Results flagged for a closer look

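In 2 of the 45 sets of 4 arrays examined (8 genes and Alb in 5 groups), an array stood far from the other 3, with a gap to the nearest of them above Dixon's critical share of the range, and chance alone gives about 1 in 20. Saa1 on SFA replicate 2 was 1.70, next to 0.51 for the nearest SFA array. Lcn2 on LFA replicate 2 was 3.14, next to 1.97. The effect of fiber length did not differ past the threshold between asbestos and nanotubes for any of the 8 genes.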

How the results depend on the processing

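Saa3 was past the threshold with LFA and with NTL, against control and against the short form, under all 30 alternatives with a test, a description only, since the gene was chosen on these groups. Counts of the 8 genes called moved as follows. For LFA against SFA, where 1 was called, 2 were called with quantile normalization, normexp, the filter on all arrays, only the groups compared, Alb or the liver markers as covariate, and without the 4 arrays richest in Alb, and the gene gained was Saa1. For NTL against NTS, where 1 was called, 2 (Saa1 and Saa3, higher) were called with quantile normalization, normexp, and the liver markers as covariate, 3 (with Hp, at 1.79 against -0.37) without the 4 arrays richest in Alb, and 4 with Alb as covariate (Saa3 higher; Saa4, Orm1, and Orm2 lower). In the methods' test, with 1 p-value over all groups, Saa1 alone passed with the fold limit in NTS, so that 1 counts there. The slope on Alb passed for 3 genes with the filter on all arrays, 3 with slide as a block, and 1 without the 4 arrays. The filter on all arrays left Saa2 and Saa4 untested, so that their slopes could not pass there. With each array omitted by itself, 1 to 2 were called for LFA against control, LFA against SFA, NTL against NTS, and LFA at equal Alb, 2 to 3 for NTL at equal Alb, and 3 to 5 slopes were past the threshold. Saa1 was lost in LFA against control without LFA replicate 2, and gained in LFA against SFA without NTS replicate 1, 2, or 4 and in NTL against NTS without NTS replicate 4. With replicate number as a block the counts were 2 for LFA and 2 for NTL against control, as without it, and the block changed no other call of the 8 genes. The pathway genes called numbered 8 to 13 with LFA and 9 to 16 with NTL under the alternatives that keep all arrays. The authors' table holds group means only and gave differences but no counts or tests.

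Of 1722 differences of single genes recomputed, 18 moved by more than the SD between replicates, all of them without the 4 arrays richest in Alb, and 0 called differences changed sign. Saa1 with NTS went from 1.90 to 0.09 and Hp with NTS from 1.01 to -1.15, since the arrays left out held the high NTS values of both. The 4 arrays per group, and for Saa2 and Saa4 signals near background, limit what could be detected.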
